A study of Phyllostachys edulis with 2 samples.

Results

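The cells described here expressed PH02Gene42801, the moso bamboo ortholog of Arabidopsis PLT1 (PLETHORA 1), and were chosen on that gene alone. A cell was taken as a member if it had more than 500 detected genes and at least 2 unique molecular identifiers (UMIs, each standing for 1 captured transcript molecule) of this gene. There were 111 such cells among 7653 kept cells in replicate 1 (1.45%, 95% Wilson interval 1.21% to 1.74%) and 117 among 7651 in replicate 2 (1.53%, 1.28% to 1.83%), 228 of 15304 in all. These intervals cover counting error only. The rule gene chose the cells and was left out of every test and of the clustering.

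PLETHORA proteins are transcription factors with AP2 DNA-binding domains. In Arabidopsis they are most abundant in the stem cell niche of the root tip and decline towards the elongating cells, and their dose helps to decide whether a cell stays a stem cell, divides or differentiates. The family, also called AINTEGUMENTA-LIKE (AIL), includes PLT1, PLT2, BABY BOOM (BBM) and AIL6, whose roles in bamboo roots rest on orthology.

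The study profiled protoplasts, plant cells freed of their walls by enzymes, prepared from moso bamboo (Phyllostachys edulis), a fast-growing woody grass. They came from the tips of basal roots. These tips were about 2 cm long, the plants were 6 to 8 weeks old by the labels, and digestion took 3 h. Both libraries came from the same untreated tissue, so the comparison here was between classes of cells and not between treatments. The 2 libraries were made with droplet 3′ chemistry and are labelled as replicates. The p-values measure only the spread between sums of cells from these 2 libraries. They held 36419750 and 42126823 UMIs, with a median of 3130 and 3565 UMIs per kept cell. Of all barcodes, 15 occurred in both libraries, and none of these belonged to a member in either library.

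No sequence of PH02Gene42801 was used here. The study did design probes for in situ hybridization against 2 of the genes that marked cells it left undefined, PH02Gene29817 (60S ribosomal protein L5-1) and PH02Gene06911 (60S ribosomal protein L15-2), and both genes are described below in the PLT1-ortholog cells. The antisense probes, printed 5′ to 3′ in lower case because no part of them is singled out, each had 100 bases, with 53% and 55% G or C, and the sense control probe was the exact reverse complement in both cases.
PH02Gene29817: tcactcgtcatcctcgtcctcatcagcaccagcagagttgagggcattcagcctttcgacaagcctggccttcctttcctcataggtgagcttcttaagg
PH02Gene06911: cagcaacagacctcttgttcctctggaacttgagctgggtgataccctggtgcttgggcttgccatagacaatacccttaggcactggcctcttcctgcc

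The PLT1 ortholog was sparsely captured. Its 540 UMIs in replicate 1 and 606 in replicate 2 lay to 59.8% and 60.2% in the members, and the highest count in a single cell was 7 in replicate 1 and 14 in replicate 2. Just inside the threshold stood 55 cells with 2 UMIs in each replicate, and just outside it 217 cells in replicate 1 and 241 in replicate 2 with 1 UMI. The remaining 56 and 62 members had 3 or more. A cell on the wrong side of the threshold is therefore often 1 molecule away from it. When every cell of at least 4000 UMIs was thinned to 4000, 44 of 104 members in replicate 1 and 44 of 114 in replicate 2 still had at least 2 UMIs, while 26 and 34 of them had none.

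Members were set against 6532 reference cells, 3165 in replicate 1 and 3367 in replicate 2, which had at least 4000 UMIs in all and none of the PLT1 ortholog. Another 343 cells, 154 and 189, had at least 4000 UMIs and exactly 1 of the rule gene, and are called 1-UMI cells below. The members had a median of 8174 and 9519 UMIs per cell, the 1-UMI cells 7803 and 9156, and the reference cells 7940 and 8710. At an equal depth of 4000 UMIs a median of 2246 and 2243 genes was detected in members, against 2036 and 2043 in reference cells. Members thus showed more different genes per cell than reference cells at the same depth in both replicates. A doublet caller marked no cell in either library, since its threshold lay above every score, so doublets were not removed, and median doublet scores were 0.0575 and 0.0594 in members against 0.0746 and 0.0772 in reference cells.

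The members lay together. Cells were clustered on their expression with the PLT1 ortholog left out, and of 15 clusters the one numbered 12 held 86 of 111 members in replicate 1 (77.5%) and 81 of 117 in replicate 2 (69.2%), against 2.18% and 2.17% of the reference cells. Cluster 12 was small, with 504 cells in all, of which 167 were members, 138 were 1-UMI cells and 142 were reference cells. At 4000 UMIs, members of cluster 12 had medians of 2238 and 2239 detected genes, against 2208 and 2211 in its reference cells. The difference in detected genes was thus smaller within cluster 12 than against all reference cells. A second group of 47 members, 20 and 27, fell in cluster 3, a larger cluster of 1247 cells with 846 reference cells. The last 14 members, 5 and 9, were scattered over 7 other clusters and were deep cells with a median of 16202 UMIs. The 1-UMI cells were split more evenly, with 40.9% and 39.7% in cluster 12 and 38.3% and 29.1% in cluster 3.

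**Figure D1:**
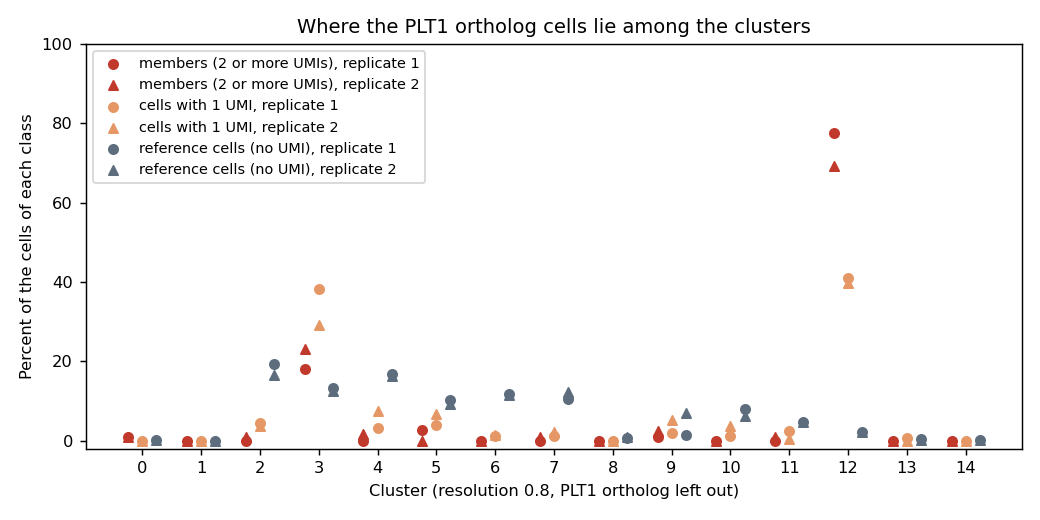
Percent of the members (red), the 1-UMI cells (orange) and the reference cells (grey) of each replicate that fell in each of the 15 clusters, made without the PLT1 ortholog. Cluster 12 held 77.5% and 69.2% of the members and 2.18% and 2.17% of the reference cells.

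The level of the rule gene over all cells of a cluster, given as a description, followed the same order. In CPM, the UMIs of a gene per 1000000 UMIs summed over the cells, it was 182 and 166 CPM in cluster 12, 25.9 and 27.5 CPM in cluster 3 and 0.584 and 1.59 CPM in cluster 6, which held no member. Cluster 6 was among the clusters in which root cap markers were highest, and it is given as an example of a low level. Cluster 14 in both replicates, cluster 8 in replicate 1 and cluster 13 in replicate 2 lay below it, at 0 CPM. The other values lay between those of cluster 6 and cluster 3. Cluster 0, of shallow cells with medians of 943.5 and 1014.5 UMIs, had 16.4 and 11.5 CPM. Cluster 9 had 8.35 and 6.15 CPM. At 4000 UMIs per cell, 44.1% of 213 cells (37.6% to 50.8%) and 42.7% of 227 cells (36.5% to 49.2%) in cluster 12 had a UMI of the gene, against 0.529% (0.145% to 1.91%) and 0.514% (0.141% to 1.85%) in cluster 6. Unthinned shares were 64.5% and 64.9% in cluster 12 against 0.428% and 1.39% in cluster 6, and the thinned cells had had medians of 7616 and 8429 UMIs in cluster 12 and 7472 and 8491 in cluster 6. In cluster 3 the thinned share was 8.93% and 7.55%. In CPM, cluster 3 thus stood below cluster 12 and above clusters 0, 6 and 9 in both replicates.

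How the cells were partitioned mattered for these places. Of 10 random starts of the clustering at the same resolution, 8 gave a leading cluster of 500 to 516 cells with 167 to 172 members, and the other 2 joined it with part of the neighbouring cells into a cluster of 1174 or 1185 cells with 206 or 207 members. The start with the highest modularity was used, and the 1174-cell cluster, which held 206 of the 228 members, is called the wider cluster below.

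Among the genes higher in members were several that the study used to mark cells it left undefined. Their choice rested on these same libraries, so their rise is not independent evidence of what these cells are. PH02Gene23345, a ubiquitin-60S ribosomal protein L40-like gene, whose product is a ubiquitin joined to a protein of the large ribosomal subunit, had 579 and 523 CPM in members against 85.0 and 99.7 CPM in reference cells. Both member sums lay far above both reference sums, with a log2 fold change of 2.26 ± 0.11 (SE, n = 2 per class, adjusted p = 1.79e-13 quasi-likelihood test in edgeR, Benjamini-Hochberg adjusted). PH02Gene29817, a ribosomal protein of the large subunit, had 1371 and 1234 CPM in members against 365 and 364 CPM in reference cells (log2 fold change 1.52 ± 0.10, adjusted p = 2.96e-11 by the same edgeR test). PH02Gene06911, another protein of that subunit, had 474 and 495 CPM in members against 193 and 201 CPM in reference cells (log2 fold change 0.99 ± 0.10, adjusted p = 3.29e-08, edgeR). Among all tested genes, 34.7% were called in either direction.

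Detection in single cells showed the same order. At 4000 UMIs, PH02Gene23345 had a UMI in 85.6% (77.6% to 91.1%) and 82.5% (74.4% to 88.3%) of members, against 23.0% (21.5% to 24.5%) and 25.6% (24.2% to 27.1%) of reference cells. The unthinned shares were 93.7% and 95.7% of members against 36.8% and 40.5% of reference cells. PH02Gene29817 was found in 97.1% and 97.4% of thinned members against 54.2% and 56.0% of thinned reference cells, so it was also widespread outside the members.

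The undefined-cell markers did not rise as a whole. Of the 5, 4 were called higher, where 14.4% of all tested genes were, and 1 was called lower, where 20.3% were. The lower one was PH02Gene41010, with 83.1 and 64.1 CPM in members against 280 and 301 CPM in reference cells (log2 fold change -2.31, adjusted p = 4.34e-12, edgeR). The 5 markers also peaked in different clusters. PH02Gene23345 was highest in cluster 12 in both replicates, at 519 and 503 CPM, PH02Gene06911 in cluster 3 and PH02Gene41010 in cluster 5. PH02Gene29817 was highest in cluster 3 in replicate 1 and in cluster 12 in replicate 2, and PH02Gene35698 in cluster 5 in replicate 1 and in cluster 3 in replicate 2. PH02Gene41010 had 19.4 and 25.8 CPM in cluster 12 and 330 and 340 CPM in cluster 3. PH02Gene02396, 60S ribosomal protein L30, was the fourth ribosomal protein gene named by the study, with 213 and 222 CPM in members against 91.9 and 92.2 CPM in reference cells, and all 4 were called higher.

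The sums behind the comparison held 1010290 and 1247225 UMIs in members against 27672159 and 32889225 in reference cells. Across all genes, 25127 had enough UMIs to be tested. Of them 3617 were higher in members (14.4%) and 5109 lower (20.3%), together 34.7%, and 2234 of the higher and 3259 of the lower differed at least 2-fold. With so large a share of all genes called, a single call says little, and counts in gene lists below are read against these percentages. The median log2 fold change over all tested genes was -0.06. The scaling moved these counts. Scaling the sums by library totals in place of TMM (trimmed mean of M values) raised the median by 0.31 on the log2 scale and gave 6025 higher and 3307 lower genes, so that 64.6% of calls were higher in place of 41.5%. Fold changes of members over all reference cells are TMM-scaled and lie below the plain ratio of the CPM values by about that amount.

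The choice of reference cells moved them more. When members and reference cells were compared within clusters 12 and 3, the 2 clusters with enough members, with the cluster as a term in the model, 10386 genes could be tested, 87 were higher and 84 lower. Of these, 81 and 82 were also called without the term. This model treated the sums of both clusters from a library as independent. The spread behind its p-values therefore also holds how far the class difference varied between the 2 clusters. Most calls were thus not found against reference cells of the same clusters, where fewer cells and genes were compared. Results with the cluster as a term are given below for many of the genes and lists.

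**Figure D2:**
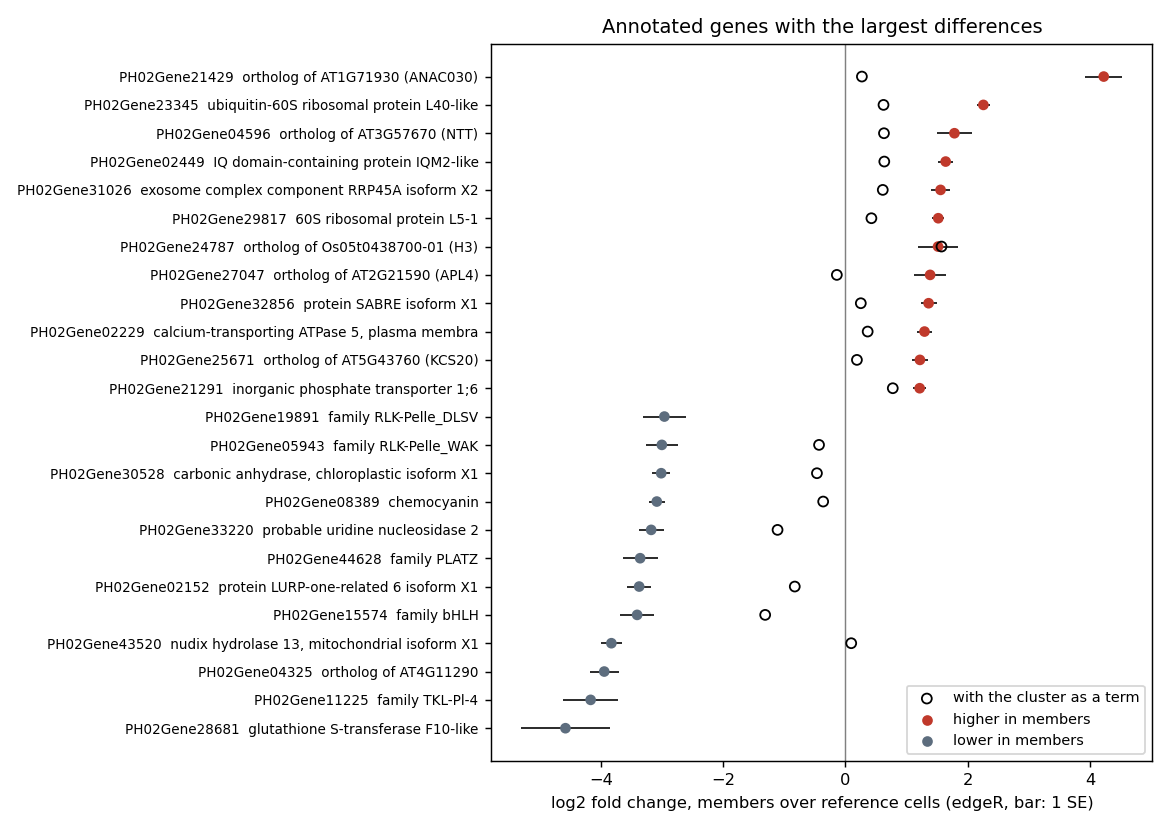
Log2 fold changes (members over reference cells, TMM-scaled, bars 1 SE) of the 12 annotated genes with the largest rise (red) and the 12 with the largest fall (grey), in both replicates and reaching 20 CPM. Open circles give the same gene with the cluster as a term where it could be tested, and they lie nearer 0 except for PH02Gene24787 (1.57 with the term and 1.51 without). PH02Gene28681 rests on 3 UMIs in members.

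With the cluster as a term 3 of the 4 ribosomal protein genes stayed called. PH02Gene23345 was 0.62 higher on the log2 scale (adjusted p = 0.0150), PH02Gene29817 0.42 (0.0203) and PH02Gene02396 0.63 (0.0150), all by edgeR's test. PH02Gene06911 was at 0.33 and did not pass (adjusted p = 0.204). Of the other undefined-cell markers, PH02Gene41010 stayed lower, at -1.50 (adjusted p = 0.00176), and PH02Gene35698 was not called.

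Relatives of PLT1 were the next group. PH02Gene29833, the PLT2 ortholog, whose Arabidopsis counterpart acts redundantly with PLT1, had 22.8 and 12.8 CPM in members, 6.76 and 9.33 CPM in 1-UMI cells and 0.976 and 1.28 CPM in reference cells. The log2 fold change of members over reference cells was 3.60 ± 0.37 (adjusted p = 3.63e-08, edgeR). At 4000 UMIs it was found in 7.69% (3.95% to 14.4%) and 7.02% (3.60% to 13.2%) of members against 0.411% (0.240% to 0.702%) and 0.564% (0.362% to 0.880%) of reference cells, with unthinned shares of 15.3% and 11.1% against 0.853% and 1.19%. The PLT2 ortholog was thus rare even in members, and most members had none captured.

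PH02Gene27330, an ortholog of BBM, which promotes embryo identity and acts with the PLT genes in Arabidopsis, was the most abundant of the family. It had 146 and 152 CPM in members, 149 and 110 CPM in 1-UMI cells and 69.6 and 64.9 CPM in reference cells (log2 fold change of members over reference cells 0.84 ± 0.12, adjusted p = 2.72e-06, edgeR). It was widespread, with 36.5% and 49.1% of thinned members against 21.6% and 20.8% of thinned reference cells. The second BBM ortholog, PH02Gene22504, was too low to test, with 2 UMIs in all members and 22 in all reference cells, a ratio of 2.44 after scaling by UMIs (exact interval 0.278 to 9.92). The AIL6 ortholog PH02Gene06628 had 0 UMIs in members and 3 in reference cells.

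Over the PLT/AIL list, 2 of 4 genes could be tested and both were higher, with a median log2 fold change of 2.22. With the cluster as a term the same 2 genes were tested, neither was called, and the median was 0.84. The PLT2 ortholog PH02Gene29833 was at 1.60 (adjusted p = 0.141) and the BBM ortholog PH02Gene27330 at 0.08 (adjusted p = 0.864, edgeR). By place, the BBM ortholog had in cluster 12 150 and 160 CPM in members against 151 and 145 CPM in reference cells, and in cluster 3 156 and 163 CPM against 147 and 145 CPM. The BBM ortholog was about equally high in members and in their cluster neighbours. The PLT2 ortholog had 16.02 and 15.04 CPM in members of cluster 12 against 11.94 and 12.41 CPM in reference cells there, sums of 12 and 12 UMIs against 6 and 7, too few for a test within the cluster. Of the 228 members, 30 had a UMI of the PLT2 ortholog, 164 of the BBM ortholog and 24 of both.

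Next to the family stand genes that pattern the root stem cell niche in Arabidopsis. Of 7 such genes tested, 2 were called higher and none lower, where 14.4% and 20.3% of all tested genes were. Their median log2 fold change was 0.33, and 4 of the 7 were above 0. The 2 that were called are described here. PH02Gene04596, the ortholog of NTT (NO TRANSMITTING TRACT), a zinc finger factor needed with its relatives for the distal stem cells of the Arabidopsis root, had 33.6 and 17.6 CPM in members against 4.99 and 6.54 CPM in reference cells (log2 fold change 1.78 ± 0.29, adjusted p = 2.7e-05, edgeR). PH02Gene25703, the ortholog of PAN (PERIANTHIA), a bZIP factor known from floral organ number and the Arabidopsis quiescent centre, had 126 and 83.4 CPM in members against 56.4 and 51.4 CPM in reference cells (log2 fold change 0.62 ± 0.14, adjusted p = 0.00133, edgeR). Both genes were above the reference cells in both replicates, which the rule for naming NTT required. With thinned cells the call of PAN was lost (log2 fold change 0.44, adjusted p = 0.108, edgeR). Neither passed with the cluster as a term: NTT was at 0.63 (adjusted p = 0.508) and PAN at -0.11, a change of sign.

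**Figure D3:**
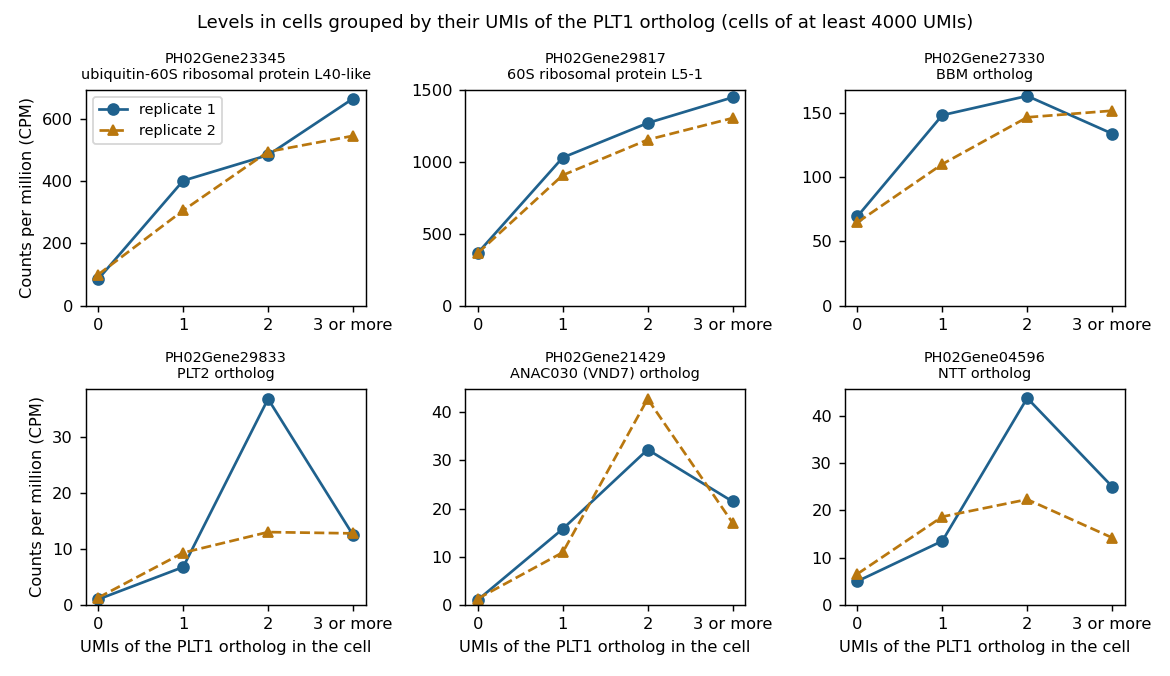
CPM of 6 genes in cells of at least 4000 UMIs grouped by their UMIs of the PLT1 ortholog (0, 1, 2, and 3 or more), with a line for each replicate. PH02Gene23345 (85.0 and 99.7 CPM at 0 UMIs, 666 and 546 CPM at 3 or more) and PH02Gene29817 climb over all groups in both replicates, while the orthologs of BBM, PLT2, ANAC030 and NTT do not climb beyond 2 UMIs in at least 1 replicate.

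A single gene of the xylem list stood out. PH02Gene21429 is the ortholog of ANAC030, also known as VND7, the NAC factor that switches on vessel formation in Arabidopsis xylem. It had 25.7 and 28.1 CPM in members, 15.8 and 10.9 CPM in 1-UMI cells and 1.01 and 1.28 CPM in reference cells, with a log2 fold change of members over reference cells of 4.22 ± 0.31 (adjusted p = 1.21e-10, edgeR), the largest rise among annotated genes reaching 20 CPM. The UMIs were unevenly spread, since 14 of the 35 UMIs in replicate 2 came from 1 cell of cluster 3, and without that cell the level there was 17.0 CPM, still far above the reference cells. At 4000 UMIs, 8.65% (4.62% to 15.6%) and 5.26% (2.43% to 11.01%) of members had it, against 0.348% (0.194% to 0.621%) and 0.446% (0.270% to 0.734%) of reference cells, and the unthinned shares were 16.2% and 11.97% against 0.569% and 0.743%.

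Within cluster 12 the VND7 ortholog was not higher in members. It had 32.0 and 22.6 CPM in members of this cluster against 39.8 and 55.0 CPM in its reference cells, a difference that did not pass (log2 fold change -0.81, adjusted p = 0.373, edgeR). In cluster 3 members had 9.43 and 50.9 CPM against 0.276 and 0.980 CPM in reference cells, and the member value of replicate 2 holds the 14 UMIs of that 1 cell. With the cluster as a term its log2 fold change was 0.27 (adjusted p = 0.915). In cells, 32 of the 228 members had a UMI of the VND7 ortholog, 40 of the NTT ortholog and 9 of both.

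The other xylem and secondary wall genes did not share this rise. Of 14 tested, 2 were higher and 3 lower, shares close to the 14.4% and 20.3% of all tested genes. Their median log2 fold change was 0.07. It was negative with thinned cells (-0.16), with members of at least 3 UMIs (-0.14) and without the filter on low counts (-0.17). The second gene called higher was PH02Gene45992, the ortholog of CESA4, a cellulose synthase of secondary walls, at 7.92 and 8.02 CPM in members against 3.04 and 2.52 CPM in reference cells (log2 fold change 1.21, adjusted p = 0.0229, edgeR), a call that was lost with members of at least 3 UMIs (adjusted p = 0.345) and with thinned cells (0.183). PH02Gene10076, the ortholog of XCP1, a protease of dying vessel cells in Arabidopsis, was lower, at 30.7 and 47.3 CPM in members against 103 and 115 CPM in reference cells (log2 fold change -1.77, adjusted p = 1.06e-08, edgeR), and stood at 0.0061 with the cluster as a term. Of 14 vascular regulators tested none was higher and 6 were lower, with a median log2 fold change of -1.01; among the lower was PH02Gene00562, an ortholog of HCA2, a Dof factor that promotes divisions in Arabidopsis vascular tissue, at 2.97 and 1.60 CPM in members against 14.4 and 13.5 CPM in reference cells.

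**Figure D4:**
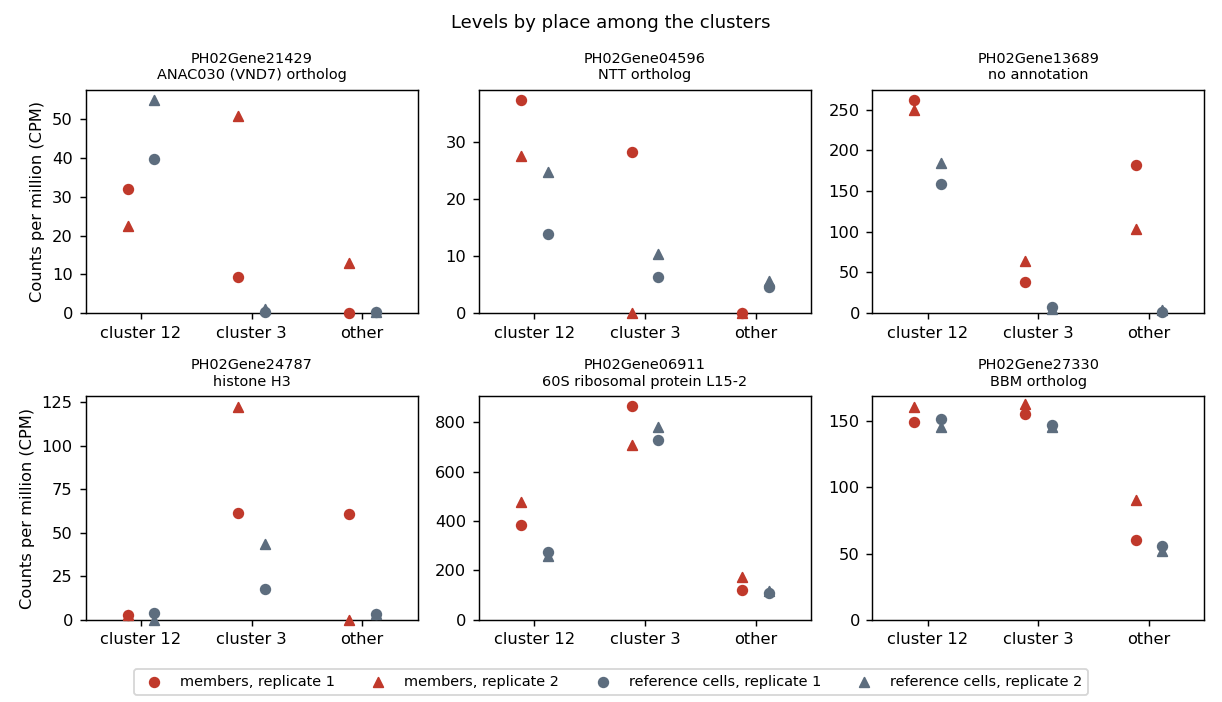
CPM of 6 genes in members (red) and reference cells (grey) of cluster 12, cluster 3 and the other clusters, with circles for replicate 1 and triangles for replicate 2. The ANAC030 (VND7) and BBM orthologs are as high in reference cells of cluster 12 as in members there, and PH02Gene13689 is higher in members in all 3 places.

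Further annotated genes with large rises came from several kinds of protein. PH02Gene02449, an IQ domain gene of the calmodulin-binding IQM kind, had 116 and 116 CPM in members against 31.2 and 28.8 CPM in reference cells (log2 fold change 1.64, adjusted p = 3.7e-10, edgeR). PH02Gene31026, for the exosome subunit RRP45A, which takes part in RNA processing and decay, had 74.2 and 56.9 CPM in members against 18.1 and 17.4 CPM in reference cells. PH02Gene32856, for a SABRE protein, which in Arabidopsis orients cell expansion and division planes, had 165 and 117 CPM in members against 45.2 and 42.1 CPM in reference cells. These 3 genes were all more than 2-fold higher in CPM in each replicate. None was called with the cluster as a term.

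Transport and lipid genes were also among the rises. PH02Gene21291, for the inorganic phosphate transporter 1;6, had 447 and 354 CPM in members against 144 and 132 CPM in reference cells (log2 fold change 1.21, adjusted p = 3.17e-09, edgeR) and was called within clusters as well (0.77, adjusted p = 0.00812). PH02Gene02229, for a plasma membrane calcium-transporting ATPase 5, had 303 and 194 CPM in members against 81.5 and 79.1 CPM in reference cells. In replicate 1, 49 of the 306 UMIs of PH02Gene02229 in members came from 1 cell. PH02Gene25671 and PH02Gene14140, orthologs of the ketoacyl-CoA synthases KCS20 and KCS1, which build very long chain fatty acids for wax and suberin, had 118 and 95.4 CPM and 15.8 and 24.05 CPM in members against 38.7 and 34.4 CPM and 8.35 and 9.33 CPM in reference cells. These 2 were the only calls among 8 tested genes of the epidermis and root hair list, which had a median log2 fold change of 0.80. With the cluster as a term, edgeR's test called none of PH02Gene02229 (0.36, adjusted p = 0.348), PH02Gene25671 (0.19, 0.686) and PH02Gene14140 (0.60, 0.640). PH02Gene14140 also lost its call with members of at least 3 UMIs (0.42, adjusted p = 0.480, edgeR). PH02Gene27047, the ortholog of APL4, a subunit of the enzyme that makes the sugar donor of starch synthesis, had 24.7 and 18.4 CPM in members against 6.29 and 6.78 CPM in reference cells and turned to -0.14 with the cluster as a term.

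A histone H3 gene, PH02Gene24787, behaved differently. It had 17.8 and 30.5 CPM in members, 21.0 and 24.9 CPM in 1-UMI cells and 5.24 and 8.51 CPM in reference cells (log2 fold change of members over reference cells 1.51 ± 0.32, adjusted p = 0.000631, edgeR). The rise was not in cluster 12, where members had 2.67 and 2.51 CPM against 3.98 and 0 CPM, but in cluster 3, where they had 61.3 and 122 CPM against 17.7 and 43.6 CPM. With the cluster as a term it stayed called at 1.57 (adjusted p = 0.0483). Only 19 of the 228 members had a UMI of this gene, and 10 of the 38 UMIs in replicate 2 came from 1 cell. With thinned cells the call was lost (adjusted p = 0.0797). The second H3 gene of the list was tested and not called.

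Of the genes with no annotation, the 2 with the largest rises were low in reference cells. PH02Gene13689 had 211 and 188 CPM in members, 91.6 and 82.4 CPM in 1-UMI cells and 5.06 and 7.02 CPM in reference cells (log2 fold change of members over reference cells 4.71 ± 0.15, adjusted p = 6.76e-17, edgeR). At 4000 UMIs it was found in 47.1% (37.8% to 56.6%) and 44.7% (35.9% to 53.9%) of members against 1.71% (1.31% to 2.22%) and 1.90% (1.49% to 2.42%) of reference cells, and unthinned in 66.7% and 63.2% against 2.69% and 3.18%. PH02Gene42190 had 37.6 and 44.9 CPM in members, 12.01 and 9.85 CPM in 1-UMI cells and 0.831 and 0.578 CPM in reference cells (log2 fold change 5.57 ± 0.29, adjusted p = 6.48e-13, edgeR). Both were also present in the reference cells of cluster 12: PH02Gene13689 had 262 and 249.5 CPM in members there against 159 and 184 CPM, and PH02Gene42190 had 46.7 and 62.7 CPM against 27.8 and 23.0 CPM. Neither was called with the cluster as a term (0.94, adjusted p = 0.0772 for PH02Gene13689 and 1.56, adjusted p = 0.0790 for PH02Gene42190).

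The genes lower in members included the markers of the other cell types. Of 8 root cap markers none was higher and 7 were lower, with a median log2 fold change of -2.20. PH02Gene28681, glutathione S-transferase F10-like, had 3 UMIs in all members and 1583 in all reference cells, a ratio of 0.0508 (exact interval 0.0105 to 0.149). Like the other exact intervals given here, this one covers counting of UMIs only and not the spread between cells or replicates. This gene was highest in cluster 14 (11114 CPM), which had only 12 reference cells. The root cap marker PH02Gene15627 had 3.96 and 25.6 CPM in members against 68.4 and 67.2 CPM in reference cells, with replicates that differed between themselves but lay below the reference cells in both (log2 fold change -2.41, adjusted p = 1.24e-07, edgeR). All 3 initial cell markers were lower, among them PH02Gene04325, an ortholog of the Arabidopsis peroxidase gene AT4G11290, at 14.8 and 4.81 CPM in members against 119 and 112 CPM in reference cells (log2 fold change -3.94, adjusted p = 5.84e-12, edgeR), and PH02Gene30511, a phenylalanine ammonia-lyase, at 86.1 and 89.8 CPM against 329 and 285 CPM. Members were thus not cells with high levels of the study's initial cell markers.

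Both transition and both epidermis markers were lower, and they stayed lower within clusters in 3 of 4 cases. The transition marker PH02Gene02039 had 189 and 280 CPM in members against 1145 and 1178 CPM in reference cells (log2 fold change -2.61, adjusted p = 1.07e-12, edgeR) and was at -0.81 with the cluster as a term (adjusted p = 0.0114). The epidermis marker PH02Gene14566 had 79.2 and 117 CPM in members against 559 and 609 CPM in reference cells (log2 fold change -2.87, adjusted p = 4.4e-13, edgeR) and was at -1.48 with the cluster as a term (adjusted p = 0.00514). Of 7 ground tissue markers 4 were lower and none higher, with a median of -0.59. These markers were highest in clusters 0, 1 and 8. The depth limit left 18 of 3562, 0 of 2034 and 54 of 794 cells of these clusters as reference cells. The reference thus held few of the cells in which these markers were highest. The orthologs of rice ground tissue markers that the study also named are not among these 7. Of those orthologs, PH02Gene02396, the ribosomal protein L30 gene above, was higher (log2 fold change 0.93, adjusted p = 1.95e-07, edgeR). The study drew the markers of the lists given here from the same libraries, so their counts are no independent evidence of what the members are.

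Summed over each list, the markers of the other types were lower in members than in reference cells but not absent. The reference cells included few cells of clusters 0, 1 and 8, where ground tissue markers were highest. Root cap markers summed to 1180 and 1395 CPM in members against 2178 and 2385 CPM in reference cells, ground tissue markers to 2351 and 2408 CPM against 3559 and 3484 CPM, initial cell markers to 540 and 564 CPM against 1076 and 981 CPM, and no marker of these 3 lists, of the transition or of the epidermis list was called higher. Of the 22 markers of these 5 lists none was at 0 UMIs in members over both replicates, and the lowest had 3 UMIs.

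Large falls among annotated genes concerned PH02Gene08389, a chemocyanin, which is a small copper-binding protein of the apoplast, at 136 and 175 CPM in members against 1023 and 1114 CPM in reference cells (log2 fold change -3.09 ± 0.13, adjusted p = 5.23e-14, edgeR), and PH02Gene43520, nudix hydrolase 13, at 22.8 and 21.6 CPM against 265 and 242 CPM (log2 fold change -3.83 ± 0.17, adjusted p = 5.23e-14, edgeR). PH02Gene30528, a carbonic anhydrase, had 35.6 and 42.5 CPM in members against 257 and 255 CPM in reference cells. PH02Gene33220, a probable uridine nucleosidase, had 10.9 and 29.7 CPM in members against 151 and 158 CPM in reference cells. These falls were shared by both replicates, as the rule for naming these genes required. None of the 4 was called with the cluster as a term, nudix hydrolase 13 turning to 0.095. Regulators among the largest falls were the bHLH gene PH02Gene15574, the PLATZ gene PH02Gene44628 and 3 kinase genes of the WAK, DLSV and TKL families (PH02Gene05943, PH02Gene19891 and PH02Gene11225), with 0 to 10.9 CPM in members against 21.4 to 55.3 CPM in reference cells. Of genes with no annotation, PH02Gene42976 had 5.94 and 8.82 CPM in members against 136 and 134 CPM in reference cells and stayed lower within clusters (-1.998, adjusted p = 0.0150), and PH02Gene27351 had 1 UMI in members and 1250 in reference cells, a ratio of 0.0215 (exact interval 0.000543 to 0.120).

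**Figure D5:**
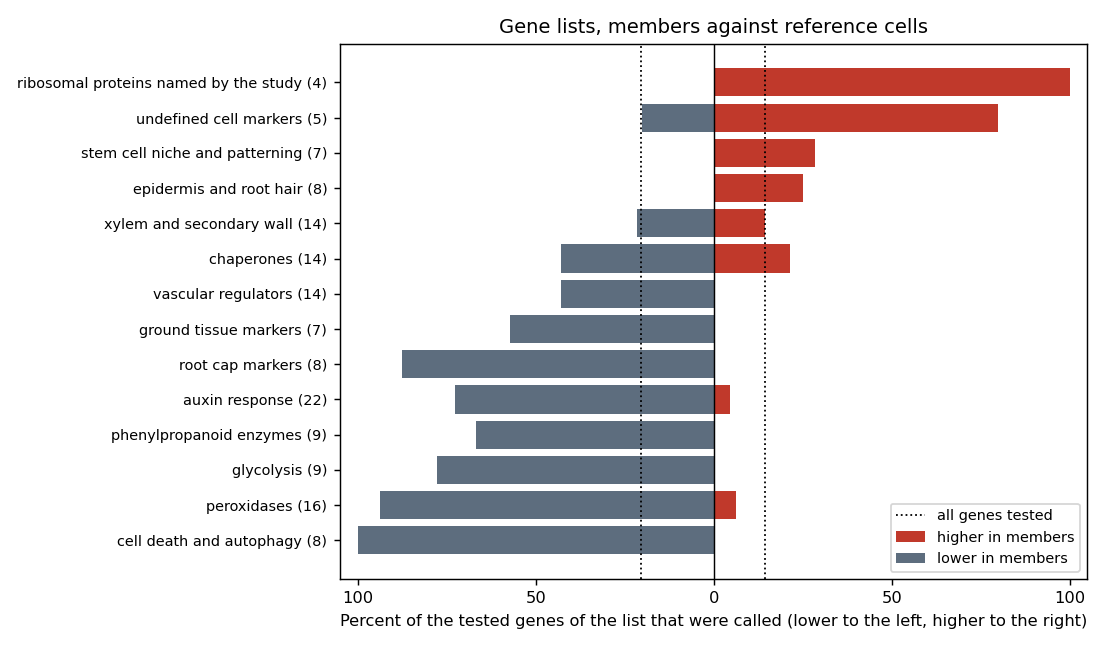
Percent of the tested genes of each list (number tested in parentheses) that were called higher (red, to the right) or lower (grey, to the left) in members than in reference cells. Dotted lines mark 14.4% higher and 20.3% lower over all genes tested, and peroxidases, cell death and autophagy genes, root cap markers and glycolysis lie far beyond the lower line. The peroxidase, chaperone and marker lists, and most of the auxin response list, were drawn from these same libraries.

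Genes of auxin response, peroxidases and aquaporins, the water channels, were mostly lower. The peroxidases and aquaporins were taken by name from the genes that the study found to differ between its clusters. Most auxin response genes came from its transcription factor table. Both sources were drawn from these libraries, so these counts are no independent evidence about the families. Of 22 auxin response genes, nearly all AUX/IAA repressors, 1 was higher and 16 were lower, with a median log2 fold change of -1.40. Examples are the AUX/IAA genes PH02Gene23239, at 12.9 and 8.02 CPM in members against 55.1 and 66.1 CPM in reference cells, and PH02Gene05831, at 86.1 and 144 CPM against 458 and 512 CPM. Of 16 peroxidases, enzymes that use peroxide and take part in wall cross-linking, 1 was higher and 15 were lower (median -1.40), such as PH02Gene44580, peroxidase 2-like, at 43.5 and 58.5 CPM in members against 252 and 259 CPM in reference cells. All 4 aquaporins were lower, PH02Gene03621, the vacuolar TIP1-1, having 289 and 387 CPM in members against 919 and 905 CPM in reference cells.

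Metabolic lists pointed the same way. Of 9 glycolysis genes 7 were lower and none higher (median log2 fold change -0.69), among them PH02Gene13004, the enolase ortholog ENO2, at 93.0 and 133 CPM in members against 401 and 366 CPM in reference cells. Of 9 phenylpropanoid enzymes 6 were lower and none higher (median -0.70), among them PH02Gene12695, the CCoAOMT1 ortholog, which methylates lignin precursors, at 324 and 366 CPM in members against 819 and 836 CPM in reference cells, and PH02Gene40449, a PAL1 ortholog at the entry of the pathway, at 24.7 and 43.3 CPM against 79.0 and 69.2 CPM. All 8 genes of the cell death and autophagy list were lower (median -1.11), among them the ATG8B ortholog PH02Gene12244, a protein of the autophagosome membrane, at 165 and 257 CPM in members against 500 and 535 CPM in reference cells. Of the 3 endodermis genes 2 were lower, among them PH02Gene13428, the ortholog of MYB36, which directs the Casparian strip, at 20.8 and 24.8 CPM in members against 76.8 and 69.2 CPM in reference cells.

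Some lists had no clear side. The chaperones among them were taken by name from the study's cluster genes, like the peroxidases. Of 14 chaperones 3 were higher and 6 lower, with a median of -0.11 that turned to 0.20 with library totals and to 0.13 with the cluster as a term. Of 12 cytoskeleton genes 1 was higher and 3 lower (median -0.18, 0.14 with library totals and 0.10 with the cluster as a term), and of 8 methionine cycle genes 2 were lower (median -0.11, 0.21 and 0.16). The direction of these 3 lists therefore depended on the scaling.

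Among transcription factor families, taken from a table that the study drew from these libraries and so no independent evidence, most calls were lower: 10 of 15 NAC genes (none higher), 11 of 17 WRKY genes (3 higher), 8 of 9 bZIP genes (none higher) and 13 of 16 Tify genes (1 higher). Tify proteins include the JAZ repressors of jasmonate response, and the 1 that rose, PH02Gene10588, had 378 and 373 CPM in members against 152 and 150 CPM in reference cells (log2 fold change 1.00, adjusted p = 2.19e-08, edgeR), while PH02Gene27185 had 39.6 and 58.5 CPM against 196 and 260 CPM (log2 fold change -2.50). Of 27 genes of the AP2/ERF-ERF family, 2 were higher and 8 lower (median -0.19, 0.13 with library totals). PH02Gene43119, an AP2/EREBP-like gene of this family, had 366 and 272 CPM in members against 116 and 113 CPM in reference cells (log2 fold change 1.15, adjusted p = 1.4e-08, edgeR), and PH02Gene41527 had 24.7 and 20.8 CPM against 93.5 and 78.6 CPM (log2 fold change -2.24, adjusted p = 1.54e-09, edgeR).

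With the cluster as a term few genes of the lists were called. Among the lists fixed by role or marker, calls were left in the ribosomal proteins named by the study (3 higher of 4), the undefined-cell markers (2 higher and 1 lower of 5), histone H3 (1 higher of 2), the epidermis markers (2 lower of 2) and the transition markers (1 lower of 2). None of 13 auxin response genes, 14 peroxidases, 9 glycolysis genes, 8 phenylpropanoid enzymes, 7 cell death and autophagy genes, 5 root cap markers or 5 stem cell niche genes tested there was called. A list that is not called within clusters may still differ, since fewer cells were compared.

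The same question was put to cluster 12 alone, where 86 and 81 members were compared with 69 and 73 reference cells. Of 9143 genes tested 16 were higher (0.175%) and 26 lower (0.284%), together 0.459%, and 764 had an unadjusted p under 0.05. With the replicate as a block, since both sums of a replicate come from 1 library, 26 were higher and 41 lower. The members there were also deeper, with a median of 8084 and 9309 UMIs against 6870 and 7233 UMIs, and with each cell thinned to 4000 UMIs 10 genes were higher and 14 lower. This comparison could miss changes, since on simulated counts the same test recovered 39% of genes changed 2-fold. The changed genes there had at least 20 CPM, and which feature of the data limited the test was not examined.

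Of the 42 genes, 8 had an annotation. PH02Gene43119, the AP2/EREBP-like gene, had 208 and 293 CPM in members against 123 and 131 CPM in reference cells of cluster 12 (log2 fold change 0.97 ± 0.18, adjusted p = 0.00152, edgeR). PH02Gene06911 had 386 and 478 CPM in members against 277 and 257 CPM in reference cells (log2 fold change 0.69 ± 0.15, adjusted p = 0.00649, edgeR), and the Tify gene PH02Gene10588 427 and 448 CPM against 292 and 300 CPM (log2 fold change 0.56, adjusted p = 0.0457, edgeR). These 3 were above the reference cells in both replicates, as the rule for naming them required. They had also been higher over all cells.

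Lower in members of cluster 12 were PH02Gene22557, the glutathione S-transferase GSTU6, at 196 and 178 CPM in members against 306 and 399 CPM in reference cells (log2 fold change -0.92 ± 0.16, adjusted p = 0.000295, edgeR), PH02Gene35821, cytochrome P450 72A14, at 33.4 and 32.6 CPM against 87.5 and 56.7 CPM, and PH02Gene40954, an aspartyl protease, at 142 and 167 CPM against 223 and 269 CPM. PH02Gene41527, the AP2/ERF-ERF gene, had 17.4 and 18.8 CPM in members against 45.8 and 47.9 CPM in reference cells (log2 fold change -1.37, adjusted p = 0.0484, edgeR). PH02Gene34457, the ortholog of the soluble pyrophosphatase PPa2, had 329 and 276 CPM against 467 and 422 CPM and was called only here and not over all cells. The transition marker PH02Gene02039, which has no annotation, was lower as well, at 160.3 and 150.5 CPM in members against 261 and 232 CPM in reference cells (adjusted p = 0.0485, edgeR). With thinned cells only GSTU6 of the 9 genes named here stayed called, and with members of at least 4000 UMIs 3 of 9 did.

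The genes that set members apart over all cells mostly did not do so within cluster 12. PH02Gene23345 had 580 and 568 CPM in members against 454 and 480 CPM in reference cells there (log2 fold change 0.29, adjusted p = 0.484, edgeR), and PH02Gene29817 1274 and 1334 CPM against 999 and 1037 CPM (0.35, adjusted p = 0.124). In the wider cluster, with 206 members and 556 reference cells, 489 genes were higher and 551 lower of 14538 tested, and 9 and 18 of the calls of cluster 12 were among them. There PH02Gene23345 was called higher (0.58, adjusted p = 0.00101, edgeR), as were the PLT2 ortholog PH02Gene29833 (1.42, adjusted p = 0.0140) and the NTT ortholog PH02Gene04596 (1.61, adjusted p = 0.00207), while PH02Gene06911 was called lower (-0.46, adjusted p = 0.00467). The direction of PH02Gene06911 within a cluster thus differed between the 2 partitions.

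The 1-UMI cells served as cells that the rule left out. They share the reference cells with the members, so the values are set side by side only. Of 24921 genes tested 2867 were higher in 1-UMI cells than in reference cells (11.5%) and 3454 lower (13.9%), together 25.4%. Library totals raised the median by 0.17 on the log2 scale, and 64.1% of calls were then higher in place of 45.4%. PH02Gene23345 had 402 and 306 CPM in 1-UMI cells against 85.0 and 99.7 CPM in reference cells (log2 fold change 1.75, adjusted p = 1.38e-10, edgeR), where the members had a fold change of 2.26. The PLT2 ortholog PH02Gene29833 was at 2.69 in 1-UMI cells and 3.60 in members, the VND7 ortholog PH02Gene21429 at 3.31 and 4.22, the NTT ortholog PH02Gene04596 at 1.34 and 1.78, and the BBM ortholog PH02Gene27330 at 0.75 and 0.84. These 5 genes were called in both comparisons, each with the smaller fold change in the 1-UMI cells. They were picked with the member results known, and PH02Gene23345, PH02Gene21429 and PH02Gene04596 were among the largest rises there. A smaller value in a second group can follow from that choice. Of all tested genes 34.7% were called in members and 25.4% in 1-UMI cells, and the share called in both was not counted.

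Grouped by UMIs of the rule gene in cells of at least 4000 UMIs, PH02Gene29817 stood at 365 and 364 CPM with 0 UMIs, 1028 and 906 CPM with 1, 1268 and 1152 CPM with 2 and 1446 and 1302 CPM with 3 or more. The VND7 ortholog PH02Gene21429 stood at 1.01 and 1.28 CPM, 15.8 and 10.9 CPM, 32.3 and 42.8 CPM and 21.5 and 17.1 CPM in the same order. The first gene was higher in each step in both replicates and the second was not. The PLT2 ortholog PH02Gene29833 was at 36.9 and 13.0 CPM with 2 UMIs and at 12.5 and 12.8 CPM with 3 or more, so the high value at 2 UMIs was found in replicate 1 only. These groups of 50 to 61 members per replicate are small, and no test was run between them.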

How the data were processed

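The deposited files hold, per the labels, UMI counts per gene and barcode from Cell Ranger 5.0.1 with STAR, made by the authors from droplet 3′ libraries. Reads were aligned to the moso bamboo genome, and its build version is not given in the sources used here. The counts are not normalized. Of 7668 and 7656 barcodes, 7653 and 7651 had more than 500 genes. The study also filtered on mitochondrial genes, which could not be applied because the gene identifiers do not name them. Names and roles of genes came from the study's supplementary tables, which annotate 1137 of the 50936 genes.

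UMIs were summed per replicate over members, 1-UMI cells and reference cells without the rule gene. Sums were tested with edgeR 4.0.16 (TMM, filterByExpr, quasi-likelihood test, Benjamini-Hochberg adjustment over all tested genes, threshold 0.05). CPM values are counts per 1000000 UMIs of the sum. Cells were clustered in Seurat 5.3.0 (2000 variable genes, 20 principal components, resolution 0.8). The result varied with the random start, and keeping the start of highest modularity among 10 was decided after seeing this. A cluster entered the model with a cluster term if it held at least 20 member and 20 reference cells in each replicate. This model had a sum for each class, cluster and replicate, taken as independent although the sums of a replicate came from the same library. Thinning drew 4000 UMIs per cell without replacement. Doublets were scored with Scrublet in scanpy 1.11.5 at an expected 6%.

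The members, gene lists and tests were chosen with earlier results of these data known. Named genes were the PLT/AIL family and ribosomal markers, up to 4 called genes per list by size of change, the 12 annotated genes with the largest rise and the 12 with the largest fall that moved alike in both replicates and reached 20 CPM, 2 genes each way without annotation, and the annotated genes with the largest changes in cluster 12. Other genes named for their place in a list or across clusters were picked from these. On simulated counts the test recovered 93.5% of 200 genes changed 2-fold between members and reference cells, with 10 false calls among 24780 genes, 39% of 200 in cluster 12 and 98.5% of 200 for 1-UMI cells. The changed genes were drawn from those of at least 20 CPM, and a common dispersion was used for all genes. The 2 sums of a replicate come from the same library and are paired by construction, although their deviations from the class means correlated little (0.065 over all cells, 0.024 in cluster 12 and 0.045 for 1-UMI cells). Alternatives were the replicate block, DESeq2 1.42.0, RLE and library-total scaling, no filter on low counts, thinned cells, other thresholds for members and reference cells, depth strata, clusters and leaving out a replicate.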

Additional observations from a re-analysis of the deposited data

How the results depend on the processing

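For members against all reference cells (3617 genes higher, 5109 lower), library totals gave 6025 and 3307, thinned cells 1766 and 3393, and the cluster as a term 87 and 84 of 10386 genes tested. The other alternatives gave 2488 to 3992 higher and 4248 to 5660 lower genes, among them the replicate block, which pairs the sums of 1 library (3464 and 4960), and DESeq2 (3232 and 4248). Within cluster 12 (16 higher, 26 lower), the replicate block gave 26 and 41, DESeq2 7 and 7, thinned cells 10 and 14, members of at least 3 UMIs 24 and 40, members of at least 4000 UMIs 11 and 12, resolution 0.6 14 and 14, and the partition with the wider cluster, added after seeing the data, 489 and 551. For 1-UMI cells (2867 and 3454) every alternative stayed within 1.5 times, and the replicate block gave 2938 and 3657.

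With the cluster as a term 4 named genes changed sign: PH02Gene27047 (-0.14), PH02Gene25703 (-0.11), PH02Gene43520 (0.095) and PH02Gene10076 (0.0061), and 34 of 51 tested lost their call. In the wider cluster PH02Gene06911 turned to -0.46. The causes were not tested. Of the named genes called, 20 of 60 over all cells, 1 of 9 in cluster 12 and 10 of 10 in 1-UMI cells kept their call under every alternative in which they could be tested. Leaving out a replicate gave only fold changes, since 1 sum per class has no spread, and none of these genes changed sign. Depth limits the rule itself, since a gene captured with 1 or 2 UMIs per cell misses cells that express it.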
